A study of Mus musculus with 4 samples.

Results

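A set of 10 genes of membrane transport and secretion that read lower in Nr6a1-/- embryos comprised Abcg5, Aqp3, Car7, Csn3, Fxyd2, Slc16a9, Slc6a4, Slco3a1, Slc35f6 and Tmed6. They were 10 of the 18193 genes named on the array and were measured by 25 of its 45037 probe sets, each given by the platform annotation to 1 of these symbols alone. The genes were picked because the genotype difference in these same arrays was downward, 9 of them in the study's functional annotation of its reduced genes and Tmed6 in an earlier analysis of the values, so that their falls are a description and carry no test.

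RNA came from whole mouse embryos at embryonic day (E) 9.0, 2 homozygous mutants for Nr6a1 (labelled Gcnf-/-) and 2 wildtype embryos (labelled wt), each hybridised to 1 Affymetrix mouse expression array and taken as separate embryos. Gcnf is the older name of Nr6a1, a nuclear receptor with no known ligand that acts mainly as a repressor in the early embryo. The mutation is constitutive, and mutants die during gestation. The paper describes embryos lacking Nr6a1 as developing more slowly overall once somites have begun to form. It adds that they do not get through embryonic turning and that their trunk stalls. Mutant and wildtype embryos of the same day may therefore differ in stage, and the part of such a delay in the values was not tested. The study's methods give a collection window that runs past the stage in the labels, and the sources used here do not give somite counts or litter for these embryos. The methods give the background of the mutant line as C56BL/6 (so spelled). In RNA from a whole embryo, fewer cells of a type and less RNA per cell cannot be told apart.

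The genes do not form 1 pathway. Cells move water, ions, sugars, sterols, amines and organic acids through channels, ATP-driven pumps and solute carriers, the last being a large superfamily that couples movement to ion gradients or to exchange. Such proteins are made on the endoplasmic reticulum and sorted to the surface through the Golgi, where the p24 (Tmed) proteins take part in loading cargo. In the midgestation embryo, absorptive and ion-transporting epithelia are found in the yolk sac, the gut and the first nephric tubules.

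Signals are log2 values after robust multi-array averaging (RMA), so that a difference of 1 is a 2-fold change. A probe set was called where limma's adjusted p did not exceed 0.05 and the genotypes differed 2-fold or more. With 1 probe set a gene, 23.8% of all 18193 genes had an unadjusted p under 0.05 in limma (2172 lower and 2164 higher). Counts of genes at an unadjusted p below are to be set beside that share. Of the 25 probe sets, 9 were called lower, in 6 of the 10 genes, and 0 were called higher. Over all probe sets 0.0777% were called lower and 0.304% higher, 0.382% in all, and nothing is read from the contrast because the genes were chosen by this same comparison. The mutant mean lay below wildtype in 23 of the 25, where 52.9% of all probe sets did so, and 12 were at least 2-fold lower whatever their p, where 0.164% of all were. No probe set of Abcg5, Slc6a4, Slco3a1 or Slc35f6 reached 2-fold in the deposited values, which was also the study's cutoff. Both mutants lay below both wildtype embryos in 21 of the 25 probe sets, against 27.3% of all probe sets. When any 1 of the 4 arrays was left out, limma called 0 of the 25 (between 5241 and 7244 of all probe sets had an unadjusted p under 0.05), while 21 to 24 of the 25 still lay below wildtype.

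**Figure D1:**
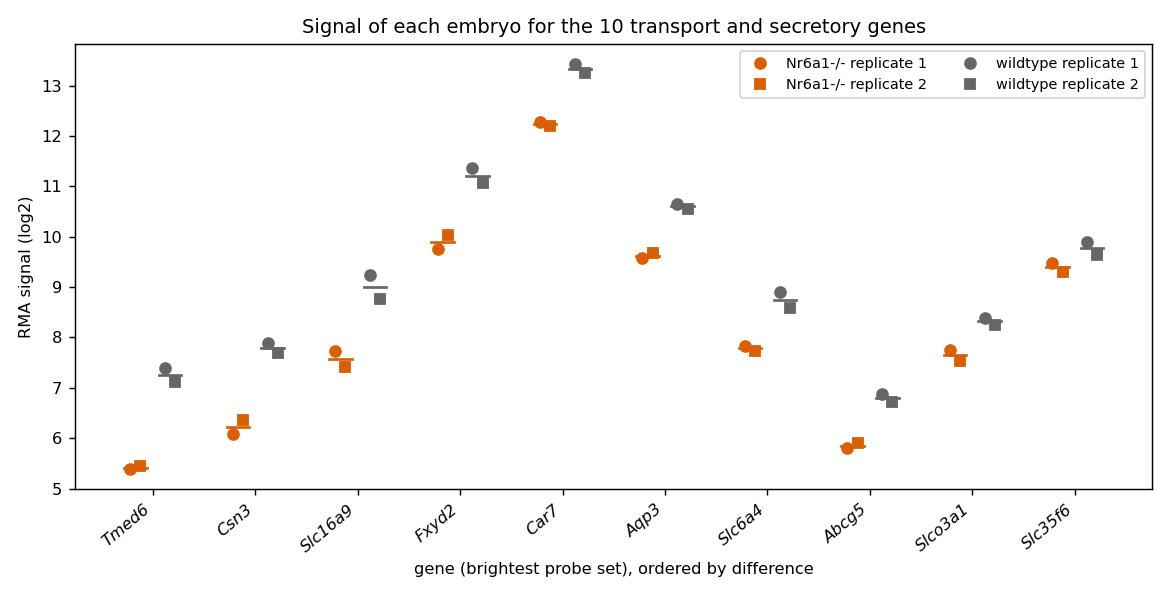
RMA log2 signal (vertical axis) of each embryo for the probe set of each gene with the highest mean signal (horizontal axis, ordered by the difference); orange is Nr6a1-/-, grey is wildtype, circles and squares are replicates 1 and 2, and horizontal bars are genotype means. Both mutants lie below both wildtype embryos for all 10 genes, with the widest step in Tmed6 and the narrowest in Slc35f6.

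The 2 genes of secretion had the widest differences by their brightest probe sets. Tmed6, a p24 family member thought to act in cargo traffic between endoplasmic reticulum and Golgi, read 5.39 and 5.44 in mutants, against 7.38 and 7.11 in wildtype embryos. The groups lay apart by 1.67 at their closest, and the mean difference was -1.83 ± 0.11 (moderated SE), 3.55-fold lower. Csn3 encodes kappa-casein, the milk protein that coats casein micelles. Its brighter probe set read 6.08 and 6.37 in mutants, against 7.89 and 7.70 in wildtype embryos, a difference of -1.57 ± 0.13. Its other probe set was dim, with 3.97 and 3.81 in mutants and 3.89 and 4.21 in wildtype embryos, and there the genotypes overlapped. The mean over both probe sets was -0.86, short of 2-fold.

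Of the 6 other milk protein genes measured, 0 were called in limma in either direction, with 1 at an unadjusted p under 0.05, and their differences ran from -0.34 to 0.04. The 4 other caseins had log2 signals of 3.35 to 4.87 in mutants and 3.74 to 4.98 in wildtype embryos. Csn1s1 read 4.78 and 4.44 in mutants and 4.68 and 4.64 in wildtype embryos. Csn2 read 4.01 and 4.42 in mutants and 4.15 and 4.35 in wildtype embryos. In both genes the genotypes overlapped. Csn1s2a stood at -0.08 and Csn1s2b at -0.34 (adjusted p = 0.173). For Tmed6, the 19 measured p24 and coat protein genes had a median of -0.08 and 0 calls (4 lower and 3 higher at an unadjusted p under 0.05). The partners Tmed10 and Tmed2 stood at -0.13 and -0.08. The single probe set of Tmed2 was rather dim, at 5.87 and 5.82 in mutants and 5.95 and 5.90 in wildtype embryos. The lowest adjusted p was that of Tmed5, at a difference of -0.37 (adjusted p = 0.104).

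Of the ion and water transport genes, Fxyd2 encodes the gamma subunit of the sodium pump, a small membrane protein that tunes the pump in kidney tubules. Its brightest probe set read 9.75 and 10.03 in mutants, against 11.37 and 11.06 in wildtype embryos, a difference of -1.32 ± 0.15. A pair of probe sets whose sequence can also match other transcripts stood at -1.17, which was called, and at -1.15, just outside the adjusted p and not called. In these 3 both mutants lay below both wildtype embryos. The remaining probe set, dim and annotated to a non-coding transcript of the gene, read 5.10 and 5.19 in mutants and 5.03 and 5.16 in wildtype embryos and overlapped.

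The pump's main beta subunit gene Atp1b1 read 12.11 and 12.05 in mutants and 12.11 and 11.92 in wildtype embryos. The genotypes overlapped, and the difference was 0.07 ± 0.09 (adjusted p = 0.745). Among the 11 measured relatives, the paralogue Fxyd3 rose in mutants, where it read 9.43 and 9.60, against 7.83 and 8.04 in wildtype embryos, 2.98-fold higher (limma adjusted p = 0.0154). Fxyd6, which lies next to Fxyd2 on the chromosome, stood at 0.22 (adjusted p = 0.190).

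Car7, a cytosolic carbonic anhydrase that speeds the exchange of carbon dioxide and bicarbonate, had all 3 of its probe sets called. The brightest, whose sequence can also match other transcripts, read 12.27 and 12.20 in mutants, against 13.42 and 13.25 in wildtype embryos, a difference of -1.10 ± 0.09. The others stood at -1.34 and -1.27, and in all 3 both mutants lay well below both wildtype embryos. Of the 15 other carbonic anhydrases measured, 0 were called (4 lower and 3 higher at an unadjusted p under 0.05) and 9 lay above wildtype. Car13 passed the adjusted p without reaching 2-fold, at 8.67 and 8.55 in mutants and 7.94 and 7.98 in wildtype embryos (1.57-fold higher, adjusted p = 0.0438). Car9, a membrane enzyme known as a hypoxia target, stood at 0.50 (adjusted p = 0.0535), and Car2 also at 0.50 (adjusted p = 0.111). Among the 16 bicarbonate and proton carriers of the Slc4 and Slc9 families, differences ran from -0.27 to 0.26 with 0 calls (2 at an unadjusted p under 0.05).

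Aqp3, an aquaglyceroporin that passes water and glycerol, had 4 probe sets. The brightest read 9.57 and 9.68 in mutants, against 10.65 and 10.55 in wildtype embryos, a difference of -0.98 ± 0.08. The called one read 7.09 and 7.11 in mutants, against 8.15 and 8.09 in wildtype embryos. Another was lower at -0.71, and the dimmest overlapped at 0.13, so that the gene's mean over 4 probe sets was -0.64. The threshold passed between these probe sets, since the called one stood at -1.02 just inside 2-fold and the brightest just outside. Of the 11 other aquaporins, 7 lay above wildtype and 0 were called, with 2 at an unadjusted p under 0.05. Aqp8, a water and ammonia channel, had the highest value at 11.18 and 11.75 in mutants and 9.92 and 10.26 in wildtype embryos, without passing (log2 difference 1.37 ± 0.22, adjusted p = 0.0656). Aqp7, another aquaglyceroporin gene and the neighbour of Aqp3 on the chromosome, stood at 0.33 (adjusted p = 0.136).

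**Figure D2:**
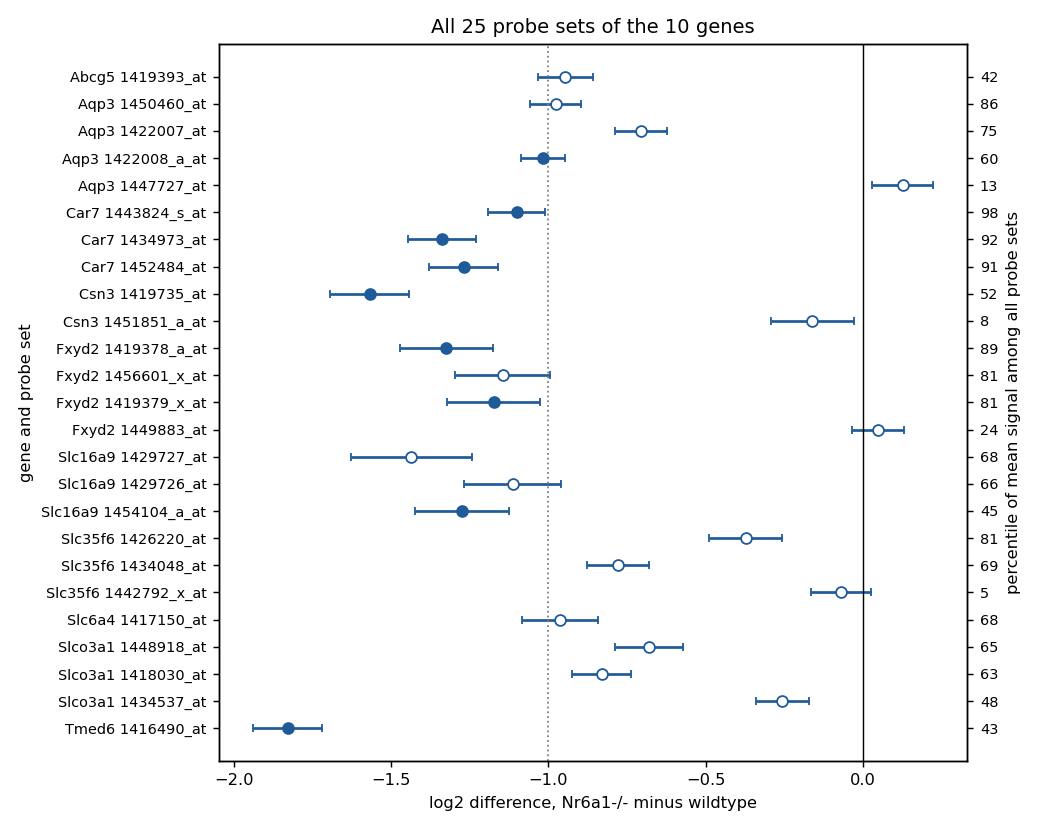
Log2 difference (Nr6a1-/- minus wildtype, horizontal axis) of each of the 25 probe sets, from 2 embryos of each genotype, with the moderated standard error of limma as a bar and the percentile of its mean signal among all probe sets at the right, a guide to how dim a reading is. Filled points were called and the dotted line marks 2-fold; the 4 dimmest probe sets, at percentiles 5.15 to 24.2, are the 4 in which the genotypes overlapped.

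The overlapping readings were the dim ones. The 4 whose genotypes overlapped lay between percentiles 5.15 and 24.2 of mean signal, and the other 21 at percentile 42.4 or above. Of the 16 probe sets not called, 3 were at least 2-fold lower and 6 passed the adjusted p without reaching 2-fold. Whatever the fold, 15 of the 25 passed the adjusted p, where 0.255% of all probe sets passed it on the lower side.

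The solute carriers among them numbered 4. Slc16a9, a monocarboxylate carrier family member linked to carnitine and urate handling in human genetics, had the widest spread within each genotype among the 10 brightest probe sets. Its brightest probe set read 7.73 and 7.41 in mutants, against 9.24 and 8.76 in wildtype embryos, a difference of -1.44 ± 0.19 that was not called. Its 2 other probe sets stood at -1.27, which was called, and at -1.11, which was not, and in all 3 the mutants lay below. Among 14 relatives, 10 lay above wildtype and 0 were called (1 lower and 4 higher at an unadjusted p under 0.05). Slc16a10, an aromatic amino acid carrier, stood at 0.74 (adjusted p = 0.0493, 1.67-fold and so short of 2-fold). The lactate carrier gene Slc16a3 stood at 0.23 (adjusted p = 0.165), and Bsg, the chaperone that carries lactate transporters to the membrane, at 0.27 (adjusted p = 0.142).

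Slc6a4 encodes the serotonin transporter, which takes serotonin up from outside the cell. It read 7.83 and 7.74 in mutants, against 8.90 and 8.59 in wildtype embryos, and the mean difference of -0.96 ± 0.12 fell short of 2-fold. Tph1, the enzyme of serotonin synthesis outside the brain, stood at 0.49 (adjusted p = 0.0879), with 5.30 and 5.36 in mutants and 4.94 and 4.74 in wildtype embryos. The neuronal enzyme gene Tph2 read 3.26 and 3.45 in mutants and 3.55 and 3.46 in wildtype embryos, near the lowest signals of the array. The brightest Ddc probe set stood at 0.08 and the vesicle carrier gene Slc18a2 at 0.10. Of the 12 serotonin genes measured, 0 were called (2 lower and 1 higher at an unadjusted p under 0.05). Nkx2-2, a homeobox gene needed for serotonin neurons, passed the adjusted p at 0.0166 without reaching 2-fold, at 5.26 and 5.22 in mutants and 6.22 and 6.18 in wildtype embryos. It also appears in the study's annotation of its reduced genes, so that its direction is not independent of how the 10 were picked. Of the 18 other Slc6 carriers, Slc6a15, a neutral amino acid carrier, stood at -0.63 (adjusted p = 0.0678) and the GABA carrier gene Slc6a13 at 0.56 (adjusted p = 0.0916), with 0 calls and 2 lower and 2 higher at an unadjusted p under 0.05.

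Slco3a1 encodes an organic anion carrier that accepts prostaglandins and thyroid hormone. Its brightest probe set read 7.76 and 7.52 in mutants, against 8.39 and 8.26 in wildtype embryos. The 3 probe sets stood at -0.68, -0.83 and -0.26, all with both mutants below both wildtype embryos and none called. Of the 14 other organic anion carriers of this family, 0 were called (1 at an unadjusted p under 0.05), and Slco1a6 had the lowest value at -0.49 (adjusted p = 0.0718). Slc35f6, a lysosomal and mitochondrial membrane protein of a family best known for nucleotide sugar carriers, had the smallest difference of the 10. Its brightest probe set read 9.48 and 9.31 in mutants, against 9.89 and 9.64 in wildtype embryos, a difference of -0.37 ± 0.12. A dimmer probe set stood at -0.78 and the dimmest overlapped at -0.07. Its paralogue Slc35f1 rose in mutants, with 7.87 and 7.59 against 6.54 and 6.61 in wildtype embryos (2.23-fold higher, adjusted p = 0.0335), and was the only call among 25 relatives (4 lower and 2 higher at an unadjusted p under 0.05). Slc35g1 stood at -0.55 (adjusted p = 0.0749).

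Abcg5 forms with Abcg8 the sterol exporter of gut and liver, an ATP-driven pump that works only as the pair. Its single probe set read 5.81 and 5.90 in mutants, against 6.88 and 6.72 in wildtype embryos, a difference of -0.95 ± 0.09. Abcg8 read 7.39 and 7.61 in mutants and 7.70 and 7.56 in wildtype embryos, so that the genotypes overlapped, and the difference was -0.12 ± 0.11 (adjusted p = 0.575). The values of the 2 genes stand side by side, and the gap between their differences was not tested. Of 9 sterol transport genes 0 were called (1 lower and 3 higher at an unadjusted p under 0.05), with Abca1, a cholesterol exporter, at 0.46 (adjusted p = 0.106) and Npc1l1, the sterol importer of gut, at -0.29 (adjusted p = 0.113).

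RefSeq (build GRCm38.p6) lists 2 starts for Abcg8. From the one nearer to the start of Abcg5 the partners are transcribed away from each other, with starts 110 bases apart. The windows from 250 bases before to 50 after those starts share 209 bases. The other Abcg8 start lies at lower coordinates than that of Abcg5, on the side into which Abcg5 is transcribed. Its window shares 0 bases with that of Abcg5. The shared stretch is shown because 1 piece of sequence lies in front of both genes, of which Abcg5 was picked as lower and Abcg8 overlapped between genotypes. It spans chr17:84682962-84683170, given on the plus strand, and the 109 capitals are the bases between the start of Abcg5 (to the left, minus strand) and this start of Abcg8 (to the right, plus strand).
Abcg5 and Abcg8 shared window: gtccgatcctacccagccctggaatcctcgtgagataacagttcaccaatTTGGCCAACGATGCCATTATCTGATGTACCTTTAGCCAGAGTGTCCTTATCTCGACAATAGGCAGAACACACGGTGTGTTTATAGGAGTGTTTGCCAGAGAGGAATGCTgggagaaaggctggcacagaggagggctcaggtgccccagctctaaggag

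RefSeq promoter windows of 300 bases were matched for 7 of the 10 genes, 9 windows in all. Nr6a1 is known to bind AGGTCA repeated directly with no spacer, and TCAAGGTCA. Neither the direct repeat nor TCAAGGTCA was found on either strand in the 9 windows, and they occurred in 0.00609% and 0.423% of 32851 windows of all genes. A single AGGTCA, a motif contained in both, was found in 1 of the 9 windows and in 16.3% of all. That window is the second of 3 listed for Car7, chr8:104540557-104540856 on the plus strand, where the element in capitals reads on the opposite strand and starts 159 bases before the start site.
Car7 single element: tatctcttcaTGACCTcctatctcga
The match is a description of these letters, and the absence of others covers these windows only.

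**Figure D3:**
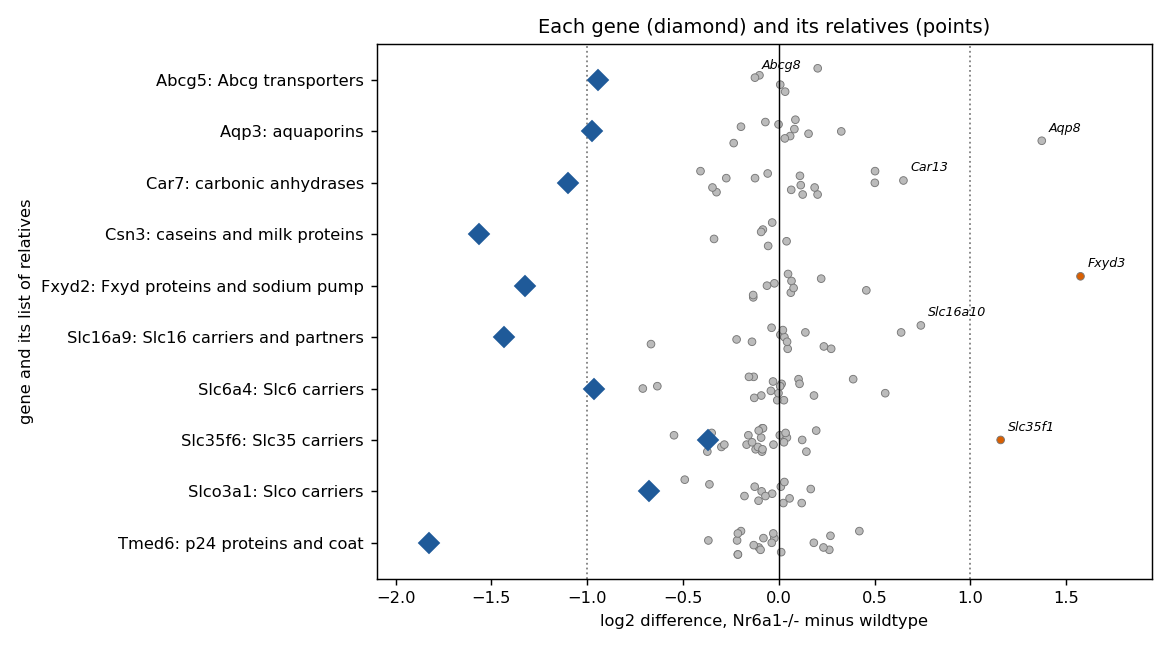
Log2 difference (horizontal axis, Nr6a1-/- minus wildtype) of the brightest probe set of each gene (blue diamonds) and of its listed relatives (points), 1 row a family; orange points were called higher, grey points were not called, and dotted lines mark 2-fold. All relatives but Fxyd3, Slc35f1 and Aqp8, which lie on the higher side, fall between the dotted lines.

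Across all the lists of relatives and partners, 173 genes other than the 10 were measured. Of these 93 (53.8%) lay below wildtype, against 52.8% of all 18193 genes, with a median difference of -0.02 against -0.01. The 10 had been picked as lower, so leaving them out takes falls away from the lists. In limma 0 of the 173 were called lower and 2 higher, where 0.121% of all genes were called lower and 0.423% higher. Calls are so rare that 0 lower among 173 genes says little. At an unadjusted p under 0.05, 20 were lower and 25 higher, 26.0% of the 173 against 23.8% of all genes. By the adjusted p alone 1 was lower, Nkx2-2, and 4 were higher, where 0.374% of all genes were lower and 1.02% higher. Leaving out any 1 array took the calls of Fxyd3 and Slc35f1 away, with 0 relatives called higher. The whole solute carrier superfamily had 345 genes besides the 4 described, of which 184 (53.3%) lay below wildtype. At an unadjusted p under 0.05 in limma, 44 were lower and 40 higher, 24.3% of the 345 against 23.8% of all genes. Of the 345, 0 were called lower and 2 higher. These were Slc35f1 and Slc44a3, a choline carrier-like gene that was 2.34-fold higher (adjusted p = 0.0173). Slc2a2, the glucose transporter of liver and yolk sac, passed the adjusted p at -0.72 ± 0.08 (adjusted p = 0.0438), and Slc7a3, a cationic amino acid carrier, at 0.75 (adjusted p = 0.0427), both short of 2-fold. Slc47a1, an organic cation exporter of the kidney singled out here for its values, had the lowest difference, at 6.11 and 6.15 in mutants and 7.65 and 7.08 in wildtype embryos, -1.23 ± 0.19 without passing (adjusted p = 0.0634).

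The 10 genes lie on 8 chromosomes, with Car7 and Tmed6 both on chromosome 8 and Csn3 and Slc35f6 both on chromosome 5. The next protein-coding gene on each side was measured in 19 cases, and 0 of these neighbours were called in limma (7 at an unadjusted p under 0.05, 2 of them lower). Their median difference was -0.02, and Nip7 beside Tmed6 had the lowest at -0.31 (adjusted p = 0.122). Nae1, which adjoins Car7, read 12.32 and 12.30 in mutants and 12.43 and 12.48 in wildtype embryos. Dync2li1, on the other side of Abcg5, stood at 0.41 (adjusted p = 0.111).

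The embryos of 1 genotype were not equally alike for these genes. In the brightest probe set of all 10, wildtype replicate 1 lay above wildtype replicate 2, by a median of 0.22, where 52.0% of all genes read higher in replicate 1 and the median size of the difference was 0.08. Over the 25 probe sets it lay above in 19 (76%), where 50.2% of all probe sets read higher in replicate 1. Between the mutants, replicate 1 was the higher in 5 of 10, with a median size of 0.14 against 0.09 over all genes. Wildtype replicate 1 was also the only female, with an Xist signal of 13.11, against 6.44 to 6.68 in the 3 males. Its poly-A spike controls stood at -0.73 relative to the average of the remaining 3 arrays. The part of either in the result was not tested. Without that embryo the 10 differences, now of 3 males, ran from -0.25 in Slc35f6 to -1.69 in Tmed6, and 9 of the 25 probe sets stayed at least 2-fold lower, against 12 with all arrays and 15 without wildtype replicate 2.

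**Figure D4:**
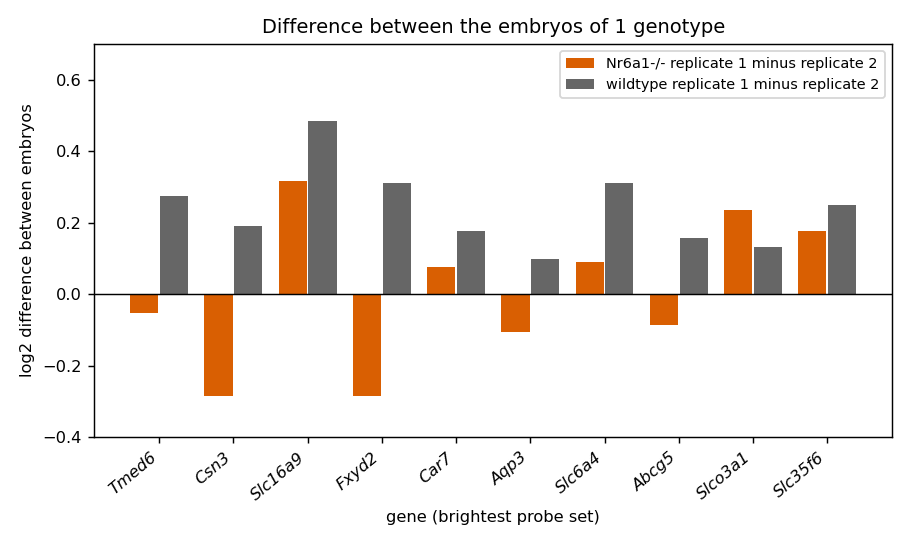
Log2 difference between replicate 1 and replicate 2 (vertical axis) of the Nr6a1-/- embryos (orange) and of the wildtype embryos (grey) for the brightest probe set of each gene (horizontal axis). All 10 grey bars point up, while the orange bars point up for 5 genes and down for 5.

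Markers of other tissues were read beside these genes. Yolk sac endoderm markers lay below wildtype in 10 of 13 with a median of -0.14 and 0 called (3 lower and 1 higher at an unadjusted p under 0.05), and their summed log2 level was 16.94 to 17.09 in mutants and 17.10 to 17.21 in wildtype embryos. Of the 6 nephric duct markers measured, 5 lay below, 3 at an unadjusted p under 0.05 and 2 by the adjusted p. Pax8, a gene likewise in the study's annotation, was called at -1.18. The summed level of the 6 was 9.21 to 9.23 in mutants and 9.62 to 9.65 in wildtype embryos. Primitive red cell markers lay above wildtype in 7 of 7, 5 at an unadjusted p under 0.05 and 0 called. Their summed level was 16.23 to 16.26 in mutants and 16.06 to 16.13 in wildtype embryos. Gut endoderm markers lay above in 6 of 7 (3 at an unadjusted p under 0.05), Sox17 being called. The 5 trophoblast and decidua markers measured were dim in all embryos, from 3.98 to 6.34. Megakaryocyte markers, of a lineage whose platelets carry the serotonin transporter, had 2 of 6 below and a median of 0.03 (1 higher at an unadjusted p under 0.05). Macrophage markers had 4 of 8 below, 3 of them at an unadjusted p under 0.05, with a median of -0.03 and 0 called. The 3 probe sets for 18S ribosomal RNA were higher in mutants by a mean log2 difference of 1.06. The part of these tissues and of RNA quality in the falls of the 10 genes was not tested. Embryonic markers of neural tube, heart and somite read between 9.09 and 11.87 in all embryos for Sox2, Pax6, Tnnt2, Myh7, Meox1 and Tcf15. Of these 6, 4 lay below wildtype, with differences from -0.62 to 0.52. In limma 0 were called (2 lower and 1 higher at an unadjusted p under 0.05).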

How the data were processed

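The authors deposited log2 signals made with RMA (background correction, quantile normalisation and probe summary; version and chip definition not given in the sources used here) for 4 arrays, 1 per embryo, each from 150 ng of total RNA. Quantile normalisation removes shifts shared by most transcripts, and unspecific hybridisation understates changes of dim probe sets. The 64 control probe sets were left out. The platform annotation gave 34945 probe sets 1 symbol, 932 several and 9160 none; updating symbols through RefSeq (GRCm38.p6) changed 0.

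All 45037 probe sets were fitted in R 4.3.3 with limma 3.58.1 (lmFit, eBayes), genotype the only term, Benjamini-Hochberg adjusted, at the study's thresholds (adjusted p of 0.05, 2-fold). Differences are mutant minus wildtype. Nothing says the embryos came from separate litters, and with 2 against 2 an exact permutation p cannot go below 0.333, so calls lean on the spread that limma pools over all features, and the number of arrays limits the precision. A gene outside the 10 is represented by the probe set of highest mean signal; lists hold families by symbol plus known partners. The procedure was tested on simulated arrays. The genes and lists were chosen with earlier results of these data known, and neighbouring genes and motifs were added after seeing the values. Beside fixed partners, a list's called genes and up to 3 others with the smallest p could be named. Alternatives were a replicate block, each array left out, a filter at a mean log2 signal of 6, repeated quantile normalisation, median centring, an intensity trend, robust eBayes, no fold threshold, the mean over a gene's probe sets and, added later, leaving out probe sets of shared sequence. The labels give same-numbered embryos only a number in common.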

Additional observations from a re-analysis of the deposited data

How the results depend on the processing

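All 10 genes kept a negative difference under all 9 alternatives that give one, some of which (the block, the signal filter) leave the difference as it was by construction. Calls depended on all arrays: leaving out 1 array, whose remaining partner is then taken to vary as the other genotype does, gave 0 to 2 probe sets called lower and 0 to 7 higher, and 0 among the 25, the relatives and the solute carriers, from fewer samples by construction (5241 to 7244 at an unadjusted p under 0.05 in limma). With the replicate number as a block, 0 probe sets passed in any of these counts. In limma 8358 had an unadjusted p under 0.05 with the block, and 9046 without it. The differences between replicates 1 and 2 correlated at 0.06 between the genotypes across probe sets. That value cannot show whether same-numbered embryos shared a litter or a batch, which was not tested. Of the 25, 12 were called with an intensity trend, median centring or repeated quantile normalisation. A mean signal of at least 6 left 21 of them, 12 called, and leaving out shared sequence also left 21, 8 called. The intensity trend called 61 probe sets lower, for which the cause was not tested. No fold threshold gave, by construction, 115 lower and 324 higher probe sets, 15 of the 25, 1 relative lower and 4 higher, and 1 solute carrier lower and 5 higher. In place of 0 lower and 2 higher solute carriers there were 1 and 1 with a mean signal of at least 6 and when each gene was averaged over its probe sets, and 1 lower with repeated quantile normalisation or an intensity trend; the cause was not tested.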
